A study of Mus musculus with 24 samples.

Results

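The metallothionein genes Mt1, Mt2 and Mt3 were followed in cultured mouse oligodendrocytes kept with or without ethanol. The members were the 3 listed gene symbols, and all 3 were found among the 55359 genes of the count table, each by its Ensembl identifier: ENSMUSG00000031765 for Mt1, ENSMUSG00000031762 for Mt2 and ENSMUSG00000031760 for Mt3. Oligodendrocytes, the myelin-forming cells of the brain, came from cortical tissue of C57BL6/J pups (postnatal days 5 to 7). They had been pulled out with magnetic O4 antibody, which binds immature oligodendrocytes. All 24 wells were first differentiated for 3 days, mainly by triiodothyronine, and then cultured for 3 more days. Experiment 1 had 6 wells with 30 mM ethanol and 6 control wells at 0 mM, and experiment 2 had 6 wells with 10 mM ethanol and 6 control wells at 0 mM. The labels give each experiment as 1 batch, and control plates stood in another incubator than ethanol plates, so ethanol cannot be told apart from incubator, nor dose from experiment. The sample titles call each of the 24 a biological replicate. Nothing in the labels says that wells came from separate animals, so p-values measure the spread between wells only.

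Metallothioneins are small proteins, very rich in cysteine, that bind zinc and copper and buffer the free level of these metals in the cell. MTF1, a transcription factor that senses zinc, drives Mt1 and Mt2 through metal response elements in their promoters, and glucocorticoids, inflammatory cytokines and oxidants can also raise these genes. In the brain, Mt1 and Mt2 are expressed mainly in astrocytes, while Mt3, the brain-enriched member, is found in astrocytes and neurons and responds little to metals.

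The coding sequences are shown because the 3 genes are close relatives. They were read from the GENCODE M21 transcripts Mt1-201, Mt2-201 and Mt3-201, and cysteine codons are in capitals.
Mt1: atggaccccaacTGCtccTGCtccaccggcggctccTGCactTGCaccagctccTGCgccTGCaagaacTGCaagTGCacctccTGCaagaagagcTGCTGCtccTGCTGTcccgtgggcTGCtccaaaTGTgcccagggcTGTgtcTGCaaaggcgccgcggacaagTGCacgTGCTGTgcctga
Mt2: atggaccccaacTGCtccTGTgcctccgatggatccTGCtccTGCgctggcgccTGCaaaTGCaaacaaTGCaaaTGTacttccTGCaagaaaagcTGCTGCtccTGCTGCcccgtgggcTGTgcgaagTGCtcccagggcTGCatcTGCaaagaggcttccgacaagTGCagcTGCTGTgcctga
Mt3: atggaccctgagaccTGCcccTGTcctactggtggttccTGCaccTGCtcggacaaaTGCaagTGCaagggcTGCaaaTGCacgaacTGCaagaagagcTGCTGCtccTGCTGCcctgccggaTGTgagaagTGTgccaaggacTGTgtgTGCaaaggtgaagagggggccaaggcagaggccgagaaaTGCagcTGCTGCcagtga
Each coding sequence held 20 cysteine codons, 32.8% of the 61 codons before the stop in Mt1 and in Mt2 and 29.4% of 68 in Mt3. Mt1 and Mt2 were identical at 148 of 186 aligned bases (79.6%). Mt3 matched Mt1 at 72.6% and Mt2 at 75.3% of 186 aligned bases, with a further 21 bases set against gaps. Only coding bases were aligned, whereas the libraries read the 3′ end of a transcript. These shares therefore do not say how well the counts of the 3 genes are kept apart. Mt3 held 6 glutamate codons, where Mt1 held 0 and Mt2 held 1. In GENCODE M21 the order along the chromosome was Mt4, Mt3, the antisense gene Gm45774, Mt2 and Mt1, and the 3 members lay on the plus strand. Gm45774 overlaps Mt2 on the other strand, and whether strand was used in counting is not given in the sources used here. It had 0 to 9 counts in a well, against 970 to 2543 for Mt2.

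Promoters are shown because Mt1 and Mt2 moved together at 30 mM ethanol. The 250 bases before each start site come from RefSeq on GRCm38.p6, where all 3 members matched by symbol. The counts are on another build, since the submitters' processing notes name GRCm39. Capitals mark matches, on either strand, to the metal response element core, TGCACNC or TGCGCNC.
Mt1 (chr8:94178839-94179088, plus strand): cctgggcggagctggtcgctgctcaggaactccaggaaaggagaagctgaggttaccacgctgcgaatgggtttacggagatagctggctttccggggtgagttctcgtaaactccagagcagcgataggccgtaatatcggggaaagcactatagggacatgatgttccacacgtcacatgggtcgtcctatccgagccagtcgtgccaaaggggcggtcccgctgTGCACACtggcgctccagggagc
Mt2 (chr8:94172368-94172617, plus strand): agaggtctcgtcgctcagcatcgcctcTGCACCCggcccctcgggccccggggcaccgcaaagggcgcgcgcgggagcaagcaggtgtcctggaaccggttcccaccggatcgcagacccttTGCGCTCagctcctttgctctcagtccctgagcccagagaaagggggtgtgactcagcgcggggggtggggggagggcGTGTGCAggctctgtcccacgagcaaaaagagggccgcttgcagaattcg
Mt3 (chr8:94152357-94152606, plus strand): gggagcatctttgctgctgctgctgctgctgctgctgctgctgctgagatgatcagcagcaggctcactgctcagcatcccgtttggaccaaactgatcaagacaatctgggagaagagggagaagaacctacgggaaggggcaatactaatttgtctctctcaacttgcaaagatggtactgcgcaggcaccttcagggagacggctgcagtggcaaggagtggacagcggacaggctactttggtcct
Within 300 bases, the 250 shown and the 50 that follow, Mt1 held 3 such matches, Mt2 held 4 and Mt3 held 1. Of these, 2 in Mt1, 1 in Mt2 and the 1 in Mt3 lay after the RefSeq start site and are not shown. At least 1 match was present in 25.7% of 32851 RefSeq promoter windows of this length, and 3 or more in 1.97%. The antioxidant response element core TGACNNNGC, found in 12.4% of the windows, had 1 match in Mt2, which overlapped no metal response element match. The E-box CACGTG (7.15% of windows) and the TATA box TATAAA (13.6%) had 0 matches in the 3 windows. Each window is set by the RefSeq start site, and bases farther up or down were not searched. The counts therefore do not say that a promoter lacks an element, or where its elements lie around a start site in use in these cells. A match is a string of letters and not a measured binding site.

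The libraries were 3′ TagSeq, which reads only the 3′ end of a transcript, and long and short genes therefore stand on 1 scale. Total counts of the wells ran from 1184609 to 1817028, and the exact two-sided permutation test between ethanol and control gave p = 0.203 at 30 mM and p = 0.478 at 10 mM (6 wells a group). Levels are given as CPM, the count divided by the TMM-scaled library total. Transcripts of mature oligodendrocytes and of astrocytes were both plentiful. The summed level of 10 mature oligodendrocyte markers lay between 4760 and 11280 CPM and that of 10 astrocyte markers between 5807 and 9569 CPM. The 30 mM replicate 1 held the highest oligodendrocyte sum, 11280 CPM, where the median of its group was 6606 CPM.

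The metallothioneins were among the most abundant transcripts. Together they took 0.684% ± 0.0226 (SD, n = 6) of all counts in the controls of experiment 1 and 0.528% ± 0.0346 (SD, n = 6) in those of experiment 2. By mean CPM, Mt1 ranked 13 among all genes in the controls of experiment 1, Mt3 ranked 25 and Mt2 ranked 57. In every one of the 24 wells Mt1 had the highest count of the 3 and Mt2 the lowest. The fourth gene of the family, Mt4, which belongs to stratified epithelia, had 1 count in each of 3 wells and 0 in the others, under the floor of 3 counts (1.69 to 2.51 CPM in a well) and below the low-count filter.

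The first comparison asked whether 30 mM ethanol changed the metallothioneins. Mt1 and Mt2, the metal-inducible pair, rose, and Mt3 did not pass the test. In the wells with 30 mM ethanol Mt1 had 4022, 4581, 4660, 4817, 4945 and 5121 CPM. Its controls had 3020, 3488, 3496, 3532, 3552 and 3577 CPM. Every ethanol well thus lay above every control well, which held, in either direction, for 4.16% of the 13235 genes tested. The mean went from 3444 ± 211 to 4691 ± 381 CPM (SD, n = 6). The fitted change was 1.39-fold, or 0.47 (SE 0.0591) on the log2 scale (95% interval of the fold 1.28 to 1.51; edgeR quasi-likelihood test, Benjamini-Hochberg adjusted p = 1.45e-07). In bulk cultures, more RNA per cell and more cells that hold the transcript cannot be told apart.

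Mt2 rose as well. Its ethanol wells had 1163, 1275, 1327, 1333, 1536 and 1554 CPM, and its controls 1019, 1020, 1021, 1183, 1201 and 1206 CPM. The groups overlapped in 1 ethanol well, replicate 4, which lay below 3 controls, while the other 5 lay above every control. The log2 fold change was 0.33 (SE 0.0629), or 1.25-fold (95% interval 1.15 to 1.37; edgeR adjusted p = 0.000336). Leaving out any single well kept both calls, with the log2 fold change of Mt1 between 0.44 and 0.52 and that of Mt2 between 0.29 and 0.36.

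Mt3 had 1952, 2313, 2471, 2565, 2567 and 2638 CPM with 30 mM ethanol, and 2245, 2368, 2398, 2457, 2501 and 2629 CPM in the controls. The groups overlapped through most of their range, and the lowest well, replicate 1, was an ethanol well. The log2 fold change was 0.02 (SE 0.0627, edgeR adjusted p = 0.899), with a 95% interval of -0.11 to 0.14, so the interval for Mt3 ended below those of Mt1 (0.35 to 0.59) and Mt2 (0.20 to 0.45). Of the 3 members, 2 were called higher and 0 lower, in a comparison that called 9.67% of all tested genes, 3.02% higher and 6.65% lower.

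**Figure D1:**
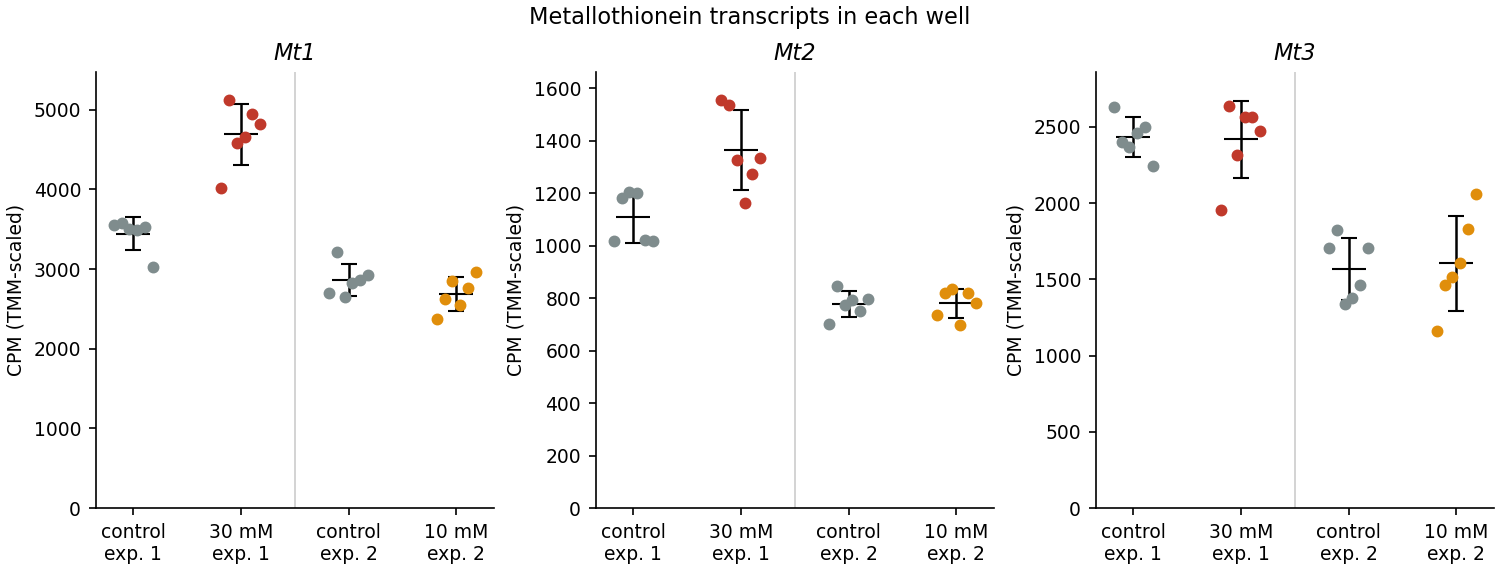
Level of each metallothionein transcript (CPM after TMM scaling, linear axis from 0) in the 24 wells. Points are wells in 4 groups of 6, and the line with bars is the mean ± SD. The 6 wells with 30 mM ethanol lie at 4022 to 5121 CPM for Mt1, above all controls of experiment 1, while Mt3 overlaps its controls at both doses.

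The second comparison asked the same at 10 mM, and none of the 3 members passed the test. Mt1 had 2374, 2550, 2622, 2768, 2852 and 2957 CPM with 10 mM ethanol and 2650, 2702, 2830, 2867, 2920 and 3216 CPM in the controls of experiment 2. The lowest 3 wells were all ethanol wells, the highest was a control and the rest overlapped. The log2 fold change of Mt1 was -0.10 (SE 0.0517, 95% interval -0.20 to 0.01, edgeR adjusted p = 0.547). This interval did not reach the lower bound found at 30 mM, 0.35.

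Mt2 had 697, 735, 782, 820, 822 and 834 CPM with 10 mM ethanol and 704, 751, 775, 794, 798 and 846 CPM in the controls, and the groups overlapped throughout. Its log2 fold change was 0.0023 (SE 0.0529, 95% interval -0.10 to 0.11, edgeR adjusted p = 0.995). Mt3 was the most scattered member in this experiment, with 1161, 1462, 1513, 1607, 1832 and 2059 CPM with ethanol and 1340, 1376, 1462, 1706, 1707 and 1823 CPM in the controls. Both the lowest and the highest well of Mt3 were ethanol wells, and its log2 fold change was 0.03 (SE 0.0679, 95% interval -0.11 to 0.17, edgeR adjusted p = 0.93). The comparison called 0.657% of 13538 genes, and in 0.842% the wells did not overlap. The smallest unadjusted p was that of Mt1, 0.0694 in edgeR with TMM, so 0 of 3 members passed 0.05 there. Of all 13538 genes, 1366 did. DESeq2 gave Mt1 0.0833 unadjusted. Limma voom gave 0.0198 and edgeR with library totals 0.0299, which pass 0.05 before adjustment but not after it (adjusted p = 0.378 and 0.435).

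Whether the change differed between the experiments was asked with an interaction term fitted to the 24 wells. The change of Mt1 was more positive at 30 mM than at 10 mM by 0.56 log2 units, with SE 0.0842 and an edgeR adjusted p = 4.91e-06, and Mt1 held place 16 of 14655 genes by p. The change of Mt2 differed by 0.31 (SE 0.0877, edgeR adjusted p = 0.0296), but this call did not survive the removal of any of 15 single wells among the 24. The adjusted p over the 24 removals ran from 0.0214 to 0.0944, and it was 0.233 without the low-count filter. For Mt3 the difference was -0.02 (SE 0.108, 95% interval -0.24 to 0.19, edgeR adjusted p = 0.935). This test called 3.28% of genes, 0.88% with a higher and 2.4% with a lower change at 30 mM. It holds dose, experiment and batch together.

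**Figure D2:**
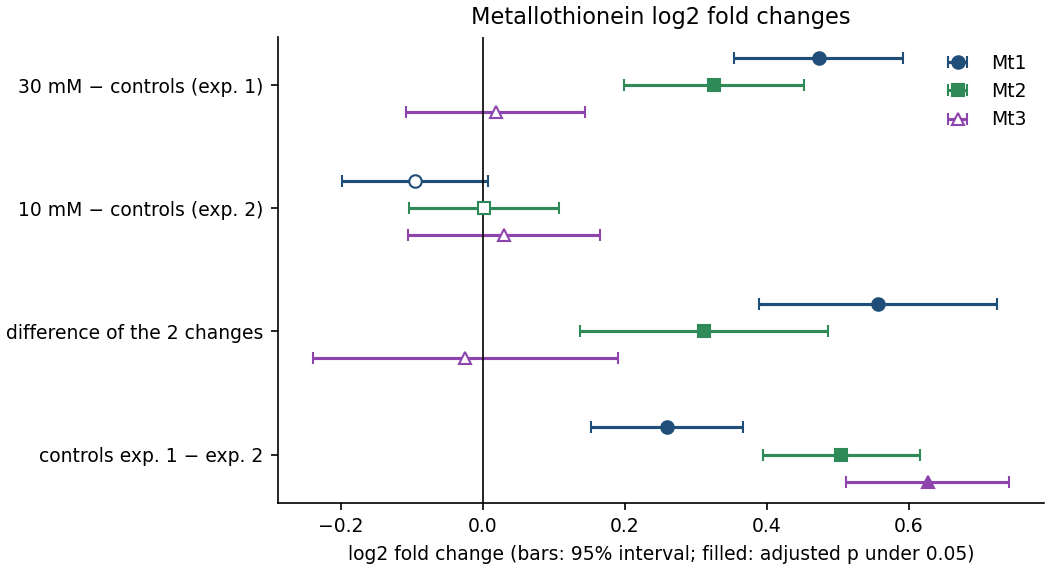
Log2 fold change of Mt1 (circles), Mt2 (squares) and Mt3 (triangles) in the 4 comparisons, with 95% intervals as bars and filled symbols for an adjusted p under 0.05. At 30 mM, Mt1 (0.47) and Mt2 (0.33) lie above 0 and Mt3 (0.02) spans it, whereas at 10 mM all 3 intervals include 0.

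The starting level of the members was not the same in the experiments. Without ethanol, all 3 were higher in experiment 1, Mt1 by 0.26 (SE 0.0539, edgeR adjusted p = 4.58e-05), Mt2 by 0.51 (SE 0.0553, edgeR adjusted p = 1.27e-12) and Mt3 by 0.63 (SE 0.0576, edgeR adjusted p = 7.12e-16) on the log2 scale. The control wells did not overlap for Mt2 and Mt3, and overlapped for Mt1. A share of 43.6% of 13479 genes was called between these control groups, 21.3% higher and 22.3% lower in experiment 1, and 18.6% did not overlap. Of 10 astrocyte markers 7 were higher and 2 lower in experiment 1, and 8 of 8 microglia markers tested were lower. Over the 4 groups, Mt1 was therefore highest at 30 mM, next in the controls of experiment 1, and lowest in the wells of experiment 2, where 10 mM (2687 ± 214 CPM) and control (2864 ± 200 CPM; SD, n = 6) did not differ beyond their spread. For Mt2 the order was 1365 ± 153 CPM at 30 mM, 1108 ± 97.3 in its controls, and 782 ± 55.2 at 10 mM beside 778 ± 48.0 in its controls (SD, n = 6), again with the last pair inside their spread. Mt3 fell into a higher pair, 2433 ± 130 CPM in the controls of experiment 1 and 2418 ± 254 at 30 mM, and a lower pair, 1606 ± 311 at 10 mM and 1569 ± 202 in its controls (SD, n = 6).

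A ratio of counts of 2 members in the same well cannot be moved by any scaling of that well. These ratios, chosen after the data were seen, were set against each other as log2 values in exact permutation tests (two-sided, 924 splits), with adjustment over 9 tests. The Mt1/Mt3 ratio was 1.95 ± 0.0793 with 30 mM ethanol and 1.42 ± 0.0611 in its controls (SD, n = 6), with 1.82 to 2.06 against 1.34 to 1.49 and no overlap (exact permutation p = 0.00216, the smallest possible, adjusted p = 0.00972). The Mt2/Mt3 ratio was 0.574 ± 0.119 against 0.457 ± 0.0495 (SD, n = 6), and 4 of the 6 ethanol wells lay above every control (exact permutation p = 0.0281, adjusted p = 0.0632), so it missed the threshold after adjustment. Mt1 was not shown to rise more than Mt2, since the Mt1/Mt2 ratio, 3.48 ± 0.505 against 3.12 ± 0.274 (SD, n = 6), overlapped (exact permutation p = 0.199, adjusted p = 0.298).

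At 10 mM none of the 3 ratios passed. Mt1/Mt3 was 1.71 ± 0.237 against 1.84 ± 0.184 (SD, n = 6; exact permutation p = 0.279, adjusted p = 0.314), Mt2/Mt3 was 0.501 ± 0.0957 against 0.502 ± 0.0668 (SD, n = 6; exact permutation p = 0.926, adjusted p = 0.926) and Mt1/Mt2 was 3.44 ± 0.235 against 3.68 ± 0.167 (SD, n = 6; exact permutation p = 0.0714, adjusted p = 0.129). Between the control groups, the Mt1/Mt3 ratio was lower in experiment 1, 1.42 against 1.84, with no overlap (n = 6, exact permutation p = 0.00216, adjusted p = 0.00972). The Mt1/Mt2 ratio was lower there too, 3.12 against 3.68 (n = 6, exact permutation p = 0.00649, adjusted p = 0.0195).

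**Figure D3:**
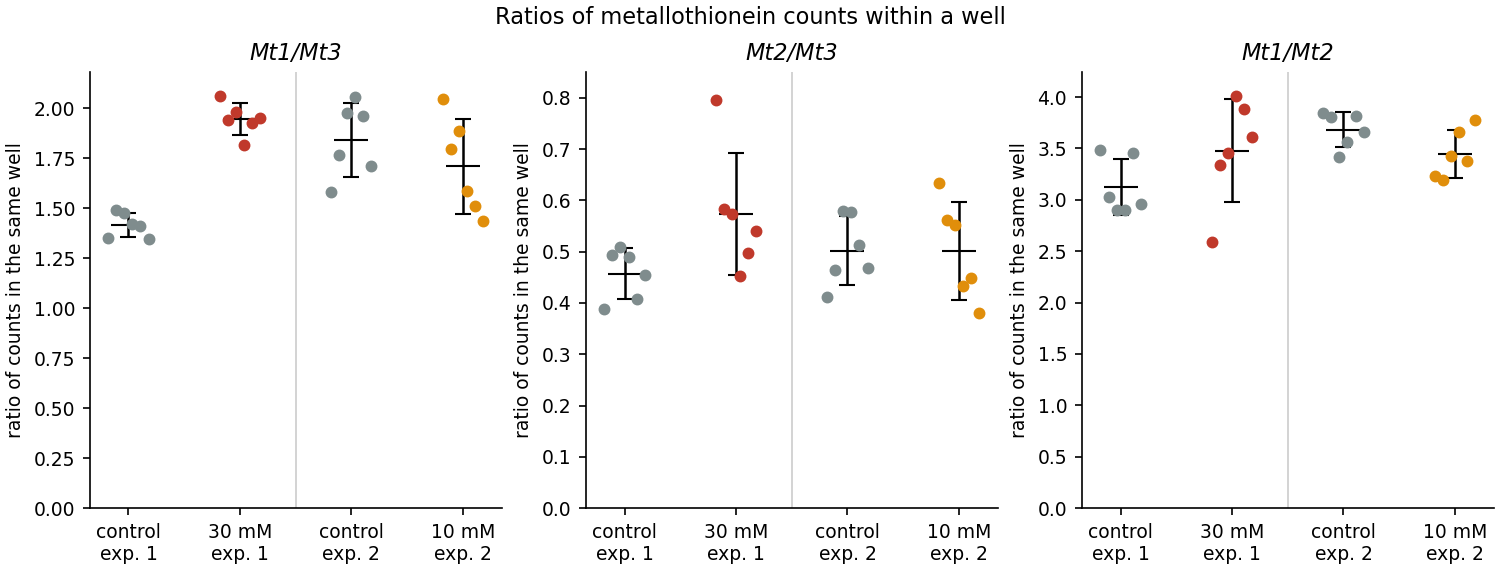
Ratio of the counts of 2 metallothionein genes in the same well (linear axis from 0), for 4 groups of 6 wells, with points for wells and lines for the mean ± SD. The Mt1/Mt3 ratio at 30 mM, 1.82 to 2.06, lies above all controls of experiment 1, 1.34 to 1.49, and the other 2 ratios overlap between ethanol and control wells.

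Within groups, the members did not vary as 1 block. Deviations of log2 CPM from the group mean over the 24 wells were correlated between Mt1 and Mt3 (Pearson r = 0.761, permutation p = 9e-05, adjusted over 3 pairs 0.00027; Spearman rho = 0.706, permutation p = 5e-04, adjusted 0.0015), also without the 2 wells farthest from the median of Mt1 (r = 0.739). In the 4 groups taken alone, r between Mt1 and Mt3 ran from 0.627 to 0.952. Among 13350 genes, Mt3 held place 9 by correlation with Mt1, and Mt1 held place 16 by correlation with Mt3. Genes of 1 well share its library and depth, so the p-values do not say that a correlation is particular to a pair. Mt1 and Mt2, the neighbours on the chromosome that rose together at 30 mM, had r = 0.256 (permutation p = 0.28, adjusted 0.42; rho = 0.319, permutation p = 0.15, adjusted 0.22), with -0.26 in the 30 mM wells and 0.396 to 0.755 in the other groups. Without the 2 wells farthest from the median of Mt1, which were replicate 1 at 30 mM and control replicate 6 of experiment 1, r was 0.476. For Mt2 and Mt3 r was -0.047 (permutation p = 0.83, adjusted 0.83; rho = -0.0383, permutation p = 0.86, adjusted 0.86), and 0.153 without 2 wells. Replicate 1 at 30 mM had the lowest Mt1 and Mt3 of its group and the highest Mt2.

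The genes most like each member were sought among 13350 genes by the same correlation, given here as a description over 24 wells that share their library and depth. Nearest to Mt1 were Fth1, the ferritin heavy chain that stores iron (r = 0.914), Dcxr, a dicarbonyl and L-xylulose reductase (0.807), and Ldhb, a lactate dehydrogenase subunit (0.793). Fth1 and Dcxr also rose at 30 mM, by 0.25 (SE 0.0557, edgeR adjusted p = 0.00194) and 0.41 (SE 0.0880, edgeR adjusted p = 0.00116) on the log2 scale, and neither passed at 10 mM (edgeR adjusted p = 0.822 and 0.334). Nearest to Mt3 were the ribosomal protein gene Rpl36 (0.924), Borcs7, of the complex that moves lysosomes (0.891), and the zinc finger gene Zfp871 (0.863). Nearest to Mt2 were the mitochondrial transfer RNA gene mt-Tq (0.786), Bbip1, of the ciliary BBSome (0.777), and the microtubule gene Map6 (0.765). None of these 6 neighbours of Mt2 and Mt3 passed at either dose in edgeR (smallest adjusted p = 0.0569, for Borcs7 at 30 mM). Reads of mt-Tq and Rpl36 may be shared with overlapping genes or near-identical copies.

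Of 25 genes that sense or move zinc, 18 passed the low-count filter at 30 mM and 0 of these passed the test in edgeR, DESeq2 or limma voom, beside 9.67% of all genes in edgeR. At this share a count of 0 among 18 genes is near the background. At an unadjusted p under 0.05 in edgeR there were 2, beside 3109 of all 13235 genes tested. Without replicate 1 at 30 mM, or without control replicate 4 of experiment 1, 1 gene was called lower. The list had a median log2 fold change of -0.02 beside 0.02 over all genes tested. Mtf1, the zinc sensor, had 36.1 ± 4.51 CPM with 30 mM ethanol and 40.9 ± 5.63 in its controls (SD, n = 6), for a fitted log2 change of -0.15, with SE 0.124 and an edgeR adjusted p = 0.497. Slc30a1, which exports zinc and is a known target of MTF1, had 41.8 ± 3.84 against 36.8 ± 5.23 CPM (SD, n = 6; log2 fold change 0.21, SE 0.120, 95% interval -0.03 to 0.45, edgeR adjusted p = 0.285). This interval holds both 0 and a change of the size seen for Mt2. At 10 mM 1 of 16 tested genes passed: Slc30a5, a zinc transporter of the secretory pathway, fell by 0.48 (SE 0.120, edgeR adjusted p = 0.0351), with 1 control well apart from the others at 33.5 CPM. This call was lost in 8 of 12 fits with 1 well left out (highest adjusted p = 0.108), and DESeq2 called 0 of 16, while Mtf1 (0.06, edgeR adjusted p = 0.919) and Slc30a1 (0.05, edgeR adjusted p = 0.948) did not pass.

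Among the other metal genes, 2 of 10 for copper and 2 of 7 tested for iron passed at 30 mM, beside 9.67% of all genes. With so few genes, and with the 2 copper calls in opposite directions, neither count is read as a result about its list. Cp, the copper ferroxidase ceruloplasmin, rose by 0.34 (SE 0.0632, edgeR adjusted p = 0.000184), and Sod1, the copper and zinc superoxide dismutase, fell by 0.30 (SE 0.0587, edgeR adjusted p = 0.00037). Fth1 rose, as given above, from 6972 ± 344 to 8134 ± 436 CPM (SD, n = 6), and the iron carrier Trf (transferrin) rose by 0.22 (SE 0.0737, edgeR adjusted p = 0.0471). The call of Trf was lost in 9 of 12 fits with 1 well left out, and its change was 0.14 without replicate 1 at 30 mM (adjusted p = 0.166). The median log2 fold changes of the copper and iron lists were 0.07 and 0.07. At 10 mM 0 of 10 and 0 of 7 passed in edgeR, DESeq2 and limma voom, with 1 and 1 at an unadjusted p under 0.05 in edgeR. Of all genes, 0.657% passed there in edgeR, and 1366 of 13538 had an unadjusted p under 0.05.

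Of the 9 glucocorticoid response genes tested at 30 mM and the 8 at 10 mM, 0 passed in edgeR, DESeq2 or limma voom, with medians of 0.01 and 0.03. At an unadjusted p under 0.05 in edgeR there were 3 and 0, beside 3109 of 13235 and 1366 of 13538 genes tested. Of all genes, 9.67% passed in edgeR at 30 mM and 0.657% at 10 mM, so counts of 0 among 9 and 8 genes are near the background. Of 13 genes of the STAT3 pathway, through which interleukin-6 type cytokines act, 5 rose and 0 fell at 30 mM (median 0.13). Serpina3n, an acute-phase protease inhibitor, rose by 0.49 (SE 0.0542, edgeR adjusted p = 9.2e-09), Lcn2, an iron-siderophore carrier, by 0.39 (SE 0.0586, edgeR adjusted p = 7.28e-06), and the transcription factor gene Cebpd by 0.27 (SE 0.0634, edgeR adjusted p = 0.00318). At 10 mM 1 of 13 passed, the immediate early gene Junb, which rose by 0.46 (SE 0.108, edgeR adjusted p = 0.0201). Junb lost its call in 4 of 12 fits with 1 well left out (highest adjusted p = 0.0683), and DESeq2 called 0 of 13. Most genes of the list for NRF2, the oxidant-sensing regulator, went the other way from Mt1 and Mt2. The list holds antioxidant genes driven by NRF2, the gene of NRF2 itself (Nfe2l2) and Keap1. Of 11, 8 fell and 0 rose at 30 mM (median -0.42), among them Txnrd1, a thioredoxin reductase (-0.63, SE 0.0613, edgeR adjusted p = 2.32e-10), Hmox1, heme oxygenase (-1.07, SE 0.125, edgeR adjusted p = 3.22e-08), and Nqo1, a quinone reductase (-0.98, SE 0.123, edgeR adjusted p = 1.46e-07). At 10 mM 3 of 11 fell and 0 rose (median -0.17), namely Hmox1 (-0.31, edgeR adjusted p = 0.0221), Nqo1 (-0.56, edgeR adjusted p = 0.0383) and Gclc, a subunit of the enzyme that starts glutathione synthesis (-0.40, edgeR adjusted p = 0.0383). With 1 well left out, the count at 10 mM was 0 to 2, whereas at 30 mM it was 7 to 8. DESeq2 called 1 of the 11 at 10 mM and limma voom 2, against 7 and 8 at 30 mM.

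**Figure D4:**
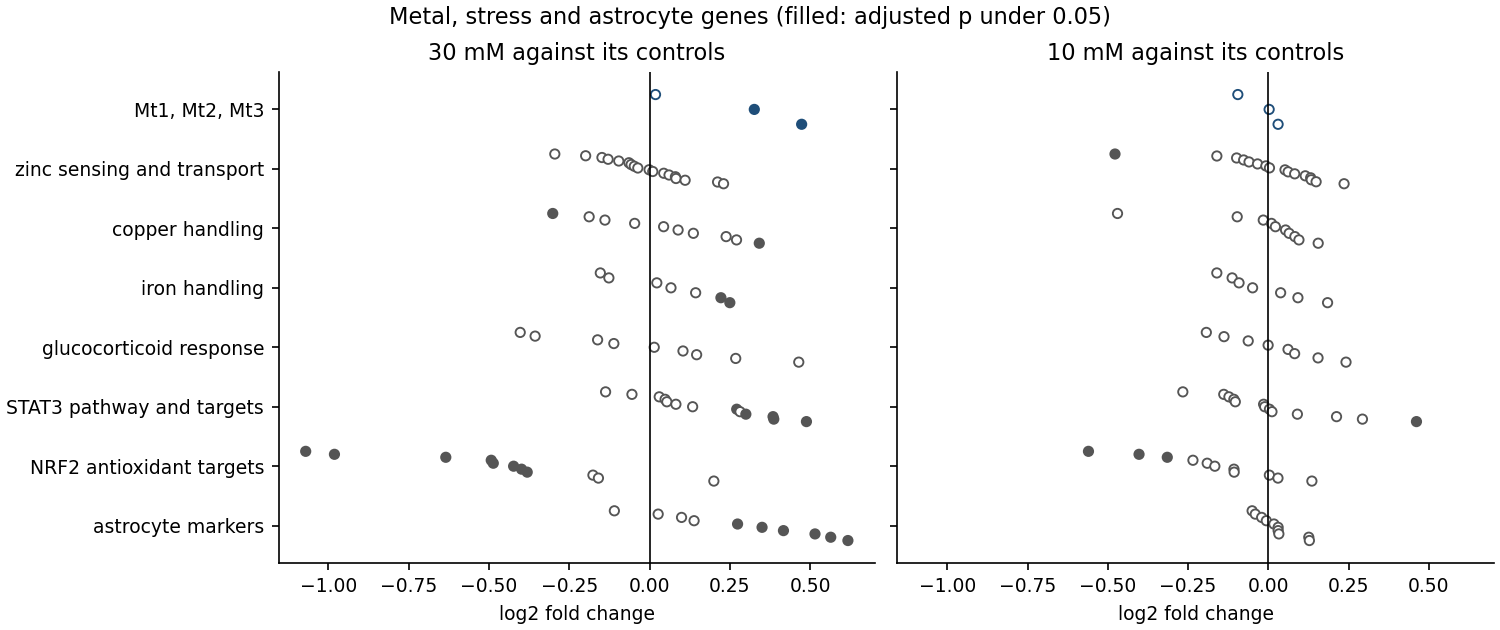
Log2 fold change of the 3 metallothioneins and of every tested gene in 7 lists, at 30 mM and at 10 mM ethanol, each against its own controls. Each point is a gene, and filled points have an adjusted p under 0.05. At 30 mM, Mt1, Mt2 and 6 of 10 astrocyte markers are filled to the right of 0 and 8 of 11 genes of the NRF2 list to the left, while 0 of 18 zinc genes are filled.

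Astrocyte markers moved in the same direction as Mt1 and Mt2, beside 3.02% of all tested genes called higher at 30 mM. At 30 mM 6 of 10 rose and 0 fell, with a median log2 fold change of 0.31, led by Slc1a2, a glutamate transporter (0.62, SE 0.0663, edgeR adjusted p = 4.31e-09), the water channel gene Aqp4 (0.56, SE 0.0668, edgeR adjusted p = 4.97e-08) and the gap junction gene Gja1 (0.51, SE 0.0751, edgeR adjusted p = 3.41e-06). Their summed level was 7515 to 9569 CPM with 30 mM ethanol and 5807 to 7129 CPM in the controls, without overlap and with 0 of the 10 at 0. At 10 mM 0 of 10 passed in edgeR, DESeq2 or limma voom, beside 0.657% of all genes in edgeR. Before adjustment, 2 of the 10 had p under 0.05 in edgeR, beside 1366 of 13538 genes tested. The sums there were 6157 to 6826 CPM against 6102 to 6453 CPM. Divided by the astrocyte sum in each well, Mt1 was 0.535 to 0.631 at 30 mM and 0.489 to 0.546 in its controls. These ranges overlapped in part, with a higher median at 30 mM, 0.574 against 0.511. The same quotient of Mt2 was 0.145 to 0.207 against 0.145 to 0.181, with a lower median at 30 mM, 0.164 against 0.171, and with replicate 1 as the highest well. The quotient of Mt3 was lower at 30 mM, 0.260 to 0.327 against 0.339 to 0.395, with no overlap. The part of astrocyte RNA in the rise of Mt1 and Mt2 was not tested.

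**Figure D5:**
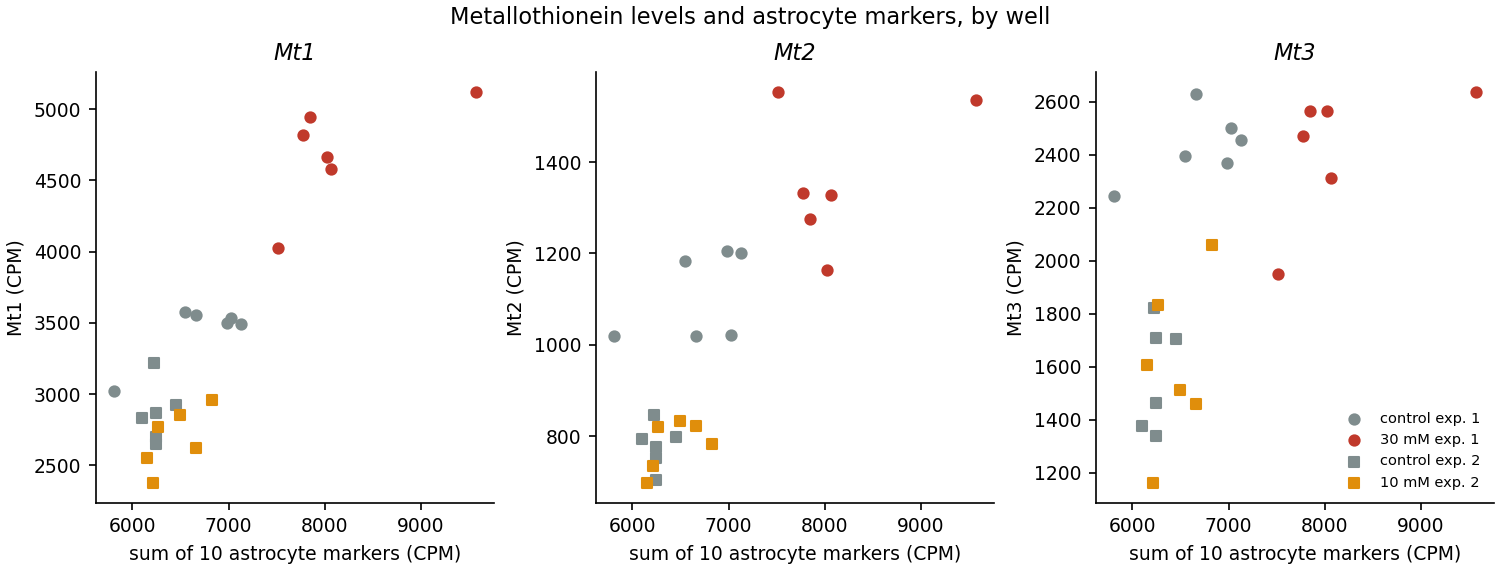
CPM of each metallothionein against the summed CPM of 10 astrocyte markers in the same well, both on linear axes that do not start at 0. Circles are wells of experiment 1 (grey control, red 30 mM) and squares those of experiment 2 (grey control, orange 10 mM). The 30 mM wells lie highest on both axes for Mt1, while for Mt3 they lie to the right of the controls of experiment 1 at overlapping levels.

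Some markers of other cell types were also called, in a comparison that called 9.67% of all tested genes at 30 mM, 3.02% higher and 6.65% lower. At 30 mM, 6 of 9 tested mature oligodendrocyte markers rose, led by Mal (0.78), Mobp (0.63) and Mag (0.59). Without replicate 1 at 30 mM, the well with the highest oligodendrocyte sum, the count was again 6 of 9, with smaller changes of 0.56 for Mal, 0.43 for Mobp and 0.40 for Mag. Also, 6 of 10 fibroblast and mural markers fell, led by Myl9 (-1.54), Acta2 (-1.60) and Tagln (-1.68). Among precursor markers Bcan (0.30) and Cspg5 (0.20) rose and Olig1 (-0.25) fell, of 10 tested. Of 6 microglia markers tested Cx3cr1 rose (1.07), of 6 neuron markers Stmn2 fell (-0.71), and 0 of 4 endothelial markers passed (1 at an unadjusted p under 0.05 in edgeR, 0 in DESeq2 and limma voom). Of all 13235 genes tested at 30 mM, 3109 had an unadjusted p under 0.05 in edgeR. At the share of all genes called, 1 call among 6 markers and 0 among 4 are near the background. The precursor calls went both ways. The calls of Cspg5 and Olig1 were lost in 9 and 4 of 12 fits with 1 well left out (highest adjusted p = 0.105 and 0.0602), and DESeq2 called 0 of 6 microglia markers. At 10 mM, Mal (0.38), Mag (0.36), Cnp (0.25), Bcan (0.23), Cx3cr1 (0.29) and Tubb3 (0.24) rose and Stmn2 (-0.40) and Dcn (-0.39) fell, each given as a log2 fold change called by edgeR. The share of all tested genes called at 10 mM was 0.657%. Mal, Mag and Cnp stayed calls in all 12 fits with 1 well left out, and the other 5 lost the call in 3 to 7 of them. Microglia markers summed to 188 to 333 CPM in the wells of experiment 1 and to 2368 to 3066 CPM in those of experiment 2. Their part in the levels of the metallothioneins was not tested.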

How the data were processed

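The authors' deposited counts are unscaled whole numbers for each gene in the 24 wells. Per the submitters' processing notes, cutadapt 1.18, STAR and GRCm39 were used. The counter, annotation release, use of strand and removal of PCR copies are not given in the sources used here. Reads were single-end, per the labels' protocols. Symbols were matched by identifier for 52083 of 55359 genes (94.1%).

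Wells of 1 dose and the controls of the same experiment entered a fit by edgeR's quasi-likelihood test (edgeR 4.0.16, R 4.3.3) with TMM, filterByExpr at 10 counts and Benjamini-Hochberg adjustment over all genes tested. An adjusted p under 0.05 was a call. The SE is the log2 fold change divided by the root of the F statistic, and intervals are 95%. CPM used 1 TMM scaling of all wells. Floors of 3 counts cover counting error only.

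Members, gene lists and tests were chosen with earlier results of these data known. Genes were named by a fixed rule: the members, the 3 genes nearest each member in correlation (mean log2 CPM of at least 3, prior count 2), Mtf1, Slc30a1 and Mt4, and from each list at most 3 called genes per dose with the smallest p. The test was checked on simulated counts with 200 changed genes. Log2 changes of 0.5 were recovered in 52% of cases at 30 mM (12945 genes tested) and 52% at 10 mM (13260 genes tested), and 5.5% (12977 genes tested) and 12.5% (13248 genes tested) for changes of 0.3. Of the calls at 30 mM, 8.77% of 114 and 15.4% of only 13 were false for changes of 0.5 and 0.3, above the nominal 5%. At 10 mM the false shares were 1.89% of 106 calls and 0% of 25. Few changed genes lay above 500 CPM, as the members do. Of these, 3 of 3 were recovered at each dose for changes of 0.5. For changes of 0.3 it was 1 of 4 at 30 mM and 3 of 3 at 10 mM. For the difference between the doses the test recovered 16.5% of changes of 0.5 (14312 genes tested) and 0.5% of changes of 0.3 (14351 genes tested). All 60 pairs of wells within a group differed by more than sampling noise (chi-square per degree of freedom 1.07 to 2.88). Alternatives covered scaling, the filter, DESeq2 1.42.0, limma voom (limma 3.58.1), a joint fit, a replicate block and leaving out each well.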

Additional observations from a re-analysis of the deposited data

Results flagged for a closer look

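Among 176 series of 6 wells (the members, the total count and the other genes named by the rule or nearest a member), 12 held a well set apart from its group, where chance gives about 1 in 20, or 8.8. For the members there was 1 such well: control replicate 6 of experiment 1 had 3020 CPM of Mt1, where the other 5 had 3488 to 3577 CPM. The same well had 718 CPM of Ldhb (others 881 to 944). Without it the log2 fold change of Mt1 at 30 mM stayed a call, as it did without any other well. Replicate 1 at 30 mM stood above its group with 506 CPM of Mal (others 228 to 271), 1496 of Mobp (748 to 835), 934 of Mag (489 to 517), 1553 of Cnp (944 to 1030) and 260 of Tubb3 (182 to 205). Replicate 2 at 30 mM stood apart with 724 CPM of Slc1a2 (529 to 582) and 861 of Aqp4 (619 to 680). In experiment 2, replicate 6 at 10 mM had 1016 CPM of Cp (1107 to 1151) and 37.6 of Acta2 (14.1 to 22.4), and control replicate 2 had 33.5 CPM of Slc30a5 (45.0 to 48.3).

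The change differed between the doses, by the interaction test of edgeR, for 16 of the 35 genes looked at, beside 3.28% of all genes. Most of the 35 had been named because they were called at 1 of the doses, which by itself raises this share, so nothing is read from it. The members among them were Mt1, by 0.56 (adjusted p = 4.91e-06), and Mt2, by 0.31 (adjusted p = 0.0296). More positive at 30 mM were also Slc1a2 by 0.61, Aqp4 by 0.60, Gja1 by 0.48, Lcn2 by 0.48, Mobp by 0.46, Serpina3n by 0.39, Cebpd by 0.36 and Fth1 by 0.29. More negative at 30 mM were Sod1 (-0.30), Olig1 (-0.37), Txnrd1 (-0.54), Hmox1 (-0.77), Myl9 (-1.21) and Acta2 (-1.43). All are differences of log2 fold changes with an adjusted p under 0.05, between experiments that also differed in batch.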

How the results depend on the processing

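Mt1 kept its direction and its call at 30 mM and in the difference between the doses, and Mt2 at 30 mM, under every alternative of scaling, filter, tool, block and left-out well, and both changes at 30 mM also in the joint fit of 24 wells. The ratio to Mt3 in the same well, chosen after seeing the data, gave Mt2 0.31 at 30 mM (adjusted p = 0.0632). Without the low-count filter the difference of Mt2 between the doses was 0.26 (adjusted p = 0.233), and Mt3 at 30 mM was -0.015. With library totals only, Mt2 at 10 mM was -0.0051 and the difference of Mt3 was 0.0022, and the ratio to Mt3 gave Mt2 -0.014 at 10 mM. None of these values near 0 was a call. Leaving out 1 well gave 0.26 to 0.34 for the difference of Mt2. The call was lost without replicates 1, 2 or 6 at 30 mM, 1, 5 or 6 of its controls, 1, 2, 4 or 5 at 10 mM, or 2, 3, 4, 5 or 6 of its controls. Leaving out 1 well gave -0.0034 to 0.076 for Mt3 at 30 mM, -0.024 to 0.037 for Mt2 and -0.051 to 0.11 for Mt3 at 10 mM, and -0.10 to 0.055 for the difference of Mt3, all without a call. The count of genes called at 10 mM, 89, was 21 in the joint fit of 24 wells and 37 to 95 with 1 well left out. It was 40 or 45 without replicate 2 or 4 at 10 mM, and 57, 37 or 46 without replicate 4, 5 or 6 of its controls. The count for the difference between the doses, 481, was 759 or 723 without replicate 1 or 2 at 30 mM. The causes were not tested.

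With the replicate block the log2 fold change at 30 mM was 0.47 for Mt1 and 0.32 for Mt2, and it changed no call of a member. Most same-numbered wells did not deviate together: their correlation passed 0.1 in 1 of 6 pairs in experiment 1 and 0 of 6 in experiment 2. The exception was the pair of replicates 6 in experiment 1, with r = 0.24. Depth limits the genes of low count: the 95% intervals of Mtf1 and Slc30a1 were wider than those of the members.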
